A study of Mus musculus with 12 samples.

Results

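Sertoli cells are the somatic cells of the seminiferous tubule, and 31 genes that mark them or carry out their tasks were followed through 12 RNA-seq libraries. The members were taken by gene name from the gene rows of each library. All 31 were found among 36987 rows of the spermatocyte libraries, and 27 among 25911 rows of the GC2 libraries, where no row named Defb36, Nr0b1, Rhox8 or Tsx. In the spermatocyte libraries 27 members had a row of their own. The other 4 were read from rows shared with further genes: Trf (row Srprb;Gm20425;Trf), Dhh (row Rhebl1;Dhh), Ctsl (row Ctsl;Gm49230) and Tsx (row Tsx;Tsix), whose values cannot be given to the member alone.

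The libraries form 4 groups of 3. The first pair is spermatocytes of Phb conditional knockout mice and spermatocytes of control mice, and the second is GC2 cells with PHB knockdown and control GC2 cells. Phb encodes prohibitin, a protein of the inner mitochondrial membrane, and GC2 is an immortalised mouse line described in the labels as spermatocytes. The sources used here do not give the Cre driver and its cell type, the age of the mice, the number of animals or the knockdown method. Because the labels name no animal or culture for a library, p-values measure only how far these samples spread, and that spread may be technical. Germ cells were released from tubules with collagenase and trypsin, stained with a Hoechst DNA dye and enriched by flow sorting. Such a sort reads DNA content and dye uptake, and the labels describe no step aimed at Sertoli cells.

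A Sertoli cell holds germ cells of every stage against its surface, closes the blood-testis barrier between them, feeds them and takes up the remains of those that die. Its fate is set by Sox9, it answers follicle-stimulating hormone from the pituitary and testosterone from Leydig cells, and it sends ligands such as GDNF and KIT ligand to spermatogonia. Levels are given in FPKM, fragment numbers set relative to transcript length and library size, so they can be set side by side between genes. Fold changes (log2) are on log2(FPKM + 1), which understates the change of low genes. A change was called where limma gave a two-sided p under 0.05 after Benjamini-Hochberg adjustment over all rows tested.

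Several features of the libraries bear on every value that follows. In the knockout libraries the 6 pachytene spermatocyte markers summed to 41.0 to 42.7 FPKM, against 1966 to 2006 FPKM in control spermatocytes, and the 6 spermatid markers to 6.17 to 8.49 FPKM, against 756 to 761 FPKM. The knockout libraries thus lack most of the pachytene message that the control libraries hold. The 6 early meiotic markers summed to 235 to 244 FPKM in knockouts, against 273 to 285 FPKM in controls. Their ratios ran from 0.772, for the abundant Sycp3, to 1.65, with a median of 1.08. Of these 6 markers 3 were called higher and 3 lower, against 40.9% and 38.5% of all rows tested. Phb itself was at 11.8, 11.3 and 11.5 FPKM in knockout spermatocytes, against 12.6, 13.4 and 13.9 FPKM in controls (log2 fold change -0.18, SE 0.042, adjusted p = 0.0074), a call that was lost under each other scaling of the libraries (-0.10 to -0.024). Mitochondrial genes took 17.1% to 19.5% of summed FPKM in knockout libraries, against 12.2% to 13.6% in spermatocyte controls. In GC2 cells Phb was at 22.7, 18.4 and 19.0 FPKM after knockdown, against 56.6, 54.0 and 52.4 FPKM in controls (log2 fold change -1.4, adjusted p = 0.00062). Library depth is estimated here, not read from the files. Steps in the low values put the spermatocyte libraries at 11.3 to 15.4 M fragments in knockouts and 14.7 to 15.6 M fragments in controls (M, mega), an estimate that could not be made for GC2. These are bulk samples, so a change in the number of Sertoli cells and a change in RNA per cell cannot be told apart.

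In knockout spermatocytes the Sertoli genes were higher almost throughout. Of the 31 members, 30 reached 1 FPKM in at least 3 libraries and were tested, and 26 of them were called higher, 4 gave no call and 0 were called lower. Across all 15957 rows tested, 79.4% were called, 40.9% higher (6533) and 38.5% lower (6139), a split that became 8218 higher and 5041 lower after quantile normalization. Drd4 and the Tsx row passed the filter only through the knockout libraries, which favours a rise, so their calls are no support. Wnt4 did not pass it. Among the 28 tested members that reached 1 FPKM in all 3 control libraries, 24 were called higher. In 28 of the 31 members, 27 of them tested, every knockout library lay above every control library, and in 0 below, which held for 42.2% and 39.6% of all rows tested. Of the called members, 25 rose at least 2-fold by the ratio of group means, a size that 18% of all rows exceeded. The median log2 fold change of the tested members was 1.81, against 0.047 for all rows. The 27 members with their own row together held 1.89%, 1.92% and 1.88% of the FPKM total in knockout libraries, against 0.450%, 0.486% and 0.455% in control libraries.

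**Figure D1:**
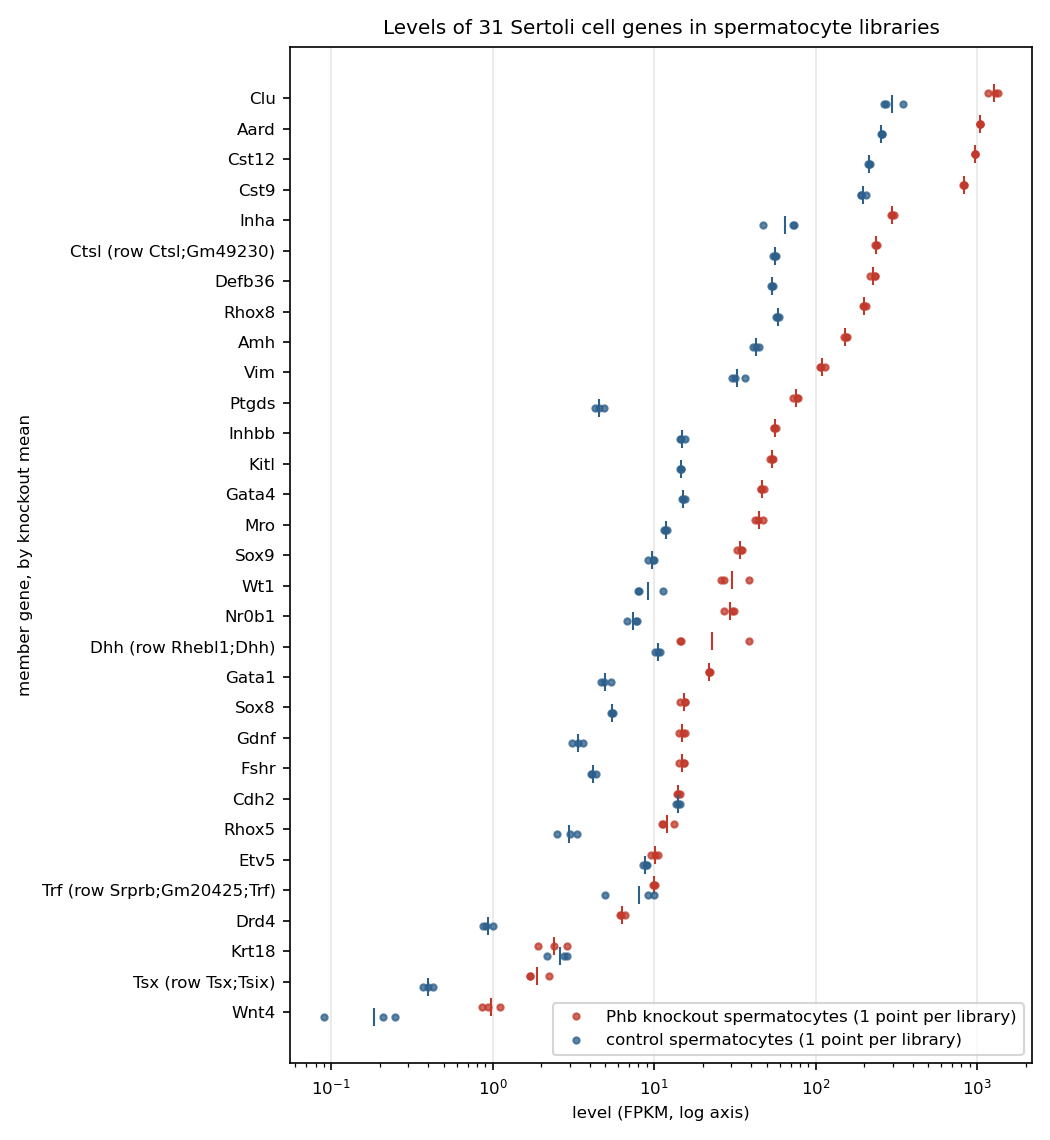
Level of each of the 31 Sertoli genes in the 6 spermatocyte libraries (FPKM, log axis), with 1 point per library and a tick at each group mean; knockout points lie above control points within a gene's line. Clu, Aard, Cst12 and Cst9 lead in both groups, and the groups overlap for the Trf row, Krt18 and Cdh2.

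Among the transcription factors, all 9 were called higher, against 40.9% of all rows, with a median knockout to control ratio of 3.44. Sox9, which directs the Sertoli fate in the embryonic gonad, lies on chromosome 11 at 112782224 to 112787760 on the plus strand (GRCm38, GENCODE M21). It was at 34.7, 32.4 and 35.2 FPKM in knockout libraries, against 9.98, 9.13 and 9.91 FPKM in control libraries (log2 fold change 1.72, SE 0.049, adjusted p = 4.0e-07). The lowest knockout library was more than 3 times the highest control library. Its relative Sox8, which backs up Sox9 in the adult testis, was at 14.4, 15.7 and 15.6 FPKM in knockouts, against 5.56, 5.49 and 5.44 FPKM in controls (1.32 on the log2 scale, SE 0.042, adjusted p = 6.7e-07). Sox8 thus rose 2.77-fold, less than Sox9 at 3.53-fold.

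Gata4, a zinc finger factor of Sertoli and Leydig cells, stood at 47.7, 46.0 and 46.1 FPKM in knockouts, against 15.4, 15.2 and 14.9 FPKM in controls. Gata1, a related factor that in the testis is found in Sertoli cells, was at 21.96, 22.2 and 21.9 FPKM in knockouts, against 4.66, 4.88 and 5.38 FPKM in controls. The ratio was 3.07 for Gata4 and 4.43 for Gata1, and neither pair of groups overlapped. Wt1, a zinc finger factor needed to keep Sertoli identity, varied more between libraries, at 38.6, 26.0 and 26.9 FPKM in knockouts and 7.98, 11.3 and 8.04 FPKM in controls (log2 fold change 1.63, SE 0.19, adjusted p = 0.00033). Knockout replicate 1 and control replicate 2 were each the high library of their group, and the groups still lay apart.

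The X-linked homeobox genes Rhox5 and Rhox8, the first of them a target of androgen in Sertoli cells, had ratios of 4.05 and 3.44. Nr0b1 (Dax1), an X-linked nuclear receptor, had a ratio of 3.98. With Gata1 and the Tsx row these make 5 X-linked members, whose ratios ran from 3.44 to 4.70 with a median of 4.05, and the median of the 26 autosomal members was 3.71. Etv5, an ETS factor that spermatogonia also express, stood apart: it was at 9.58, 10.6 and 10.2 FPKM in knockouts, against 8.89, 9.06 and 8.50 FPKM in controls. That is a ratio of 1.15 (log2 fold change 0.18, SE 0.046, adjusted p = 0.012), the only called member under 2-fold.

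Of 7 ligands and ligand subunits, 5 were called higher, against 40.9% of all rows, 1 gave no call and Wnt4 was not tested. Amh, the anti-Müllerian hormone of immature Sertoli cells, was at 154, 156 and 150 FPKM in knockout libraries, against 44.5, 42.7 and 40.9 FPKM in control libraries (log2 fold change 1.82, SE 0.037, adjusted p = 1.0e-07). Inha, the alpha subunit of inhibin, was at 305, 297 and 293 FPKM in knockouts, against 47.6, 73.5 and 72.2 FPKM in controls, where replicate 1 was the low library. Inhbb, the beta B subunit that pairs with it, rose 3.76-fold, to 55.1, 57.3 and 55.4 FPKM in knockouts, against 15.5, 14.8 and 14.4 FPKM in controls. All 3 genes encode hormones of the TGF-beta family, and none of them overlapped between groups.

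Kitl, which signals to KIT on differentiating spermatogonia, was at 52.2, 54.2 and 53.9 FPKM in knockouts, against 14.7, 14.7 and 14.4 FPKM in controls (log2 fold change 1.80, SE 0.026, adjusted p = 3.1e-08). Gdnf, which maintains spermatogonial stem cells, was at 15.6, 14.2 and 15.2 FPKM in knockouts, against 3.62, 3.09 and 3.39 FPKM in controls (1.87 on the log2 scale, SE 0.061, adjusted p = 7.3e-07). The ratio of means was 3.65 for Kitl and 4.45 for Gdnf, and the groups lay apart for both.

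The Dhh row, which holds the hedgehog ligand that Sertoli cells send to Leydig and peritubular cells together with Rhebl1, was at 14.7, 39.0 and 14.5 FPKM in knockouts, against 10.8, 10.1 and 10.6 FPKM in controls. Knockout replicate 2 was far above the other two, and no change was called (log2 fold change 0.89, SE 0.38, adjusted p = 0.070). Without knockout replicate 2 the log2 fold change was 0.44 and was called (adjusted p = 0.00036). It was also called without knockout replicate 3 (1.12) and under the 3 other scalings (0.98 to 1.05). Wnt4, a ligand that in the embryo belongs to the ovarian pathway, was at 0.94, 1.11 and 0.86 FPKM in knockouts, against 0.09, 0.25 and 0.21 FPKM in controls. By the estimated depth that is 52 to 61 fragments in knockouts and 6 to 16 in controls, so its ratio of 5.29 is imprecise.

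Beside the ligands, 12 partners were read: receptors that cells of the tubule and interstitium carry, the hedgehog effector Gli1, the ligand subunit Inhba and the activin-binding protein Fst. Of 10 tested, 6 were called higher and 4 lower, and after median centring 6 and 0, beside 40.9% higher and 38.5% lower among all rows. Kit was at 7.40, 7.29 and 7.38 FPKM in knockouts, against 8.21, 8 and 8.29 FPKM in controls, and was called lower. Ret, the GDNF signalling receptor, averaged 6.59 ± 0.27 FPKM in knockouts and 8.03 ± 0.42 FPKM in controls (SD, n = 3 each), and was called lower too. Both falls were small and rested on the scaling: Kit had no call under the 3 others (-0.056 to 0.027), and Ret kept one with mitochondrial rows removed only (-0.18). Amhr2, the AMH receptor, which Sertoli and Leydig cells carry, averaged 203 ± 5.5 FPKM in knockouts and 49.9 ± 1.3 FPKM in controls (SD, n = 3 each), a ratio of 4.08. Bmpr1a, a type 1 receptor in the AMH pathway, had a ratio of 2.14.

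Both receptors among the members were called higher in knockouts, against 40.9% of all rows. Fshr, which makes the Sertoli cell responsive to follicle-stimulating hormone, was at 14.2, 15.4 and 15.2 FPKM in knockouts, against 4.09, 4.39 and 4.10 FPKM in controls (log2 fold change 1.62, SE 0.047, adjusted p = 4.4e-07). Drd4, a dopamine receptor, was at 6.13, 6.28 and 6.62 FPKM in knockouts, against 0.91, 1.01 and 0.87 FPKM in controls, a ratio of means of 6.82. It passed the filter only through the knockouts, so its call is no support, and its log2 fold change of 1.93 at a pseudocount of 1 understates that ratio.

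Of the 7 secreted or lysosomal products 6 were called higher, against 40.9% of all rows, and these 6 include the most abundant member. Clu (clusterin), a secreted chaperone and one of the main Sertoli proteins, lies on chromosome 14 at 65968483 to 65981547. It was at 1171, 1355 and 1284 FPKM in knockout libraries, against 272, 350 and 267 FPKM in control libraries (log2 fold change 2.1, SE 0.12, adjusted p = 8.6e-06). Cst12 and Cst9, cystatin family genes that neighbour each other on chromosome 2, were tightly placed within each group. Cst12 was at 967, 971 and 968 FPKM in knockouts, against 213, 211 and 217 FPKM in controls (2.17 on the log2 scale, SE 0.021, adjusted p = 1.0e-08). Cst9 was at 818, 829 and 837 FPKM in knockouts, against 192, 192 and 205 FPKM in controls (2.07 on the log2 scale, SE 0.032, adjusted p = 3.9e-08). The pair rose by nearly the same factor, 4.53 for Cst12 and 4.22 for Cst9. Defb36, a beta-defensin, was at 233, 217 and 233 FPKM in knockouts, against 52.9, 54.8 and 53.9 FPKM in controls, a ratio of 4.23. The Ctsl row, with the lysosomal protease cathepsin L, was at 240, 232 and 237 FPKM in knockouts, against 56.9, 54.9 and 55.8 FPKM in controls, again a ratio of 4.23.

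For Cst9, Cst12 and Defb36, all on chromosome 2, the bases upstream of their starts are shown with those of Fshr, which rose 3.57-fold. Other members on chromosome 2 had other ratios (Wt1 3.35, Vim 3.34, Ptgds 16.6). The Ctsl row, on chromosome 13, had 4.23, so a similar factor was not tied to a shared chromosome. They are RefSeq sequences (GRCm38.p6), 5′ to 3′ on the gene's strand and ending 1 base before the annotated gene: Cst9 at chr2:148834897-148835146 on the plus strand, Cst12 at chr2:148789115-148789360 on the plus strand, Defb36 at chr2:152604077-152604326 on the plus strand and Fshr at chr17:89200676-89200925 on the minus strand. Capitals mark a SOX motif (ACAAAG or ACAAT) or a GATA motif (AGATAA or TGATAA) on either strand.
Cst9: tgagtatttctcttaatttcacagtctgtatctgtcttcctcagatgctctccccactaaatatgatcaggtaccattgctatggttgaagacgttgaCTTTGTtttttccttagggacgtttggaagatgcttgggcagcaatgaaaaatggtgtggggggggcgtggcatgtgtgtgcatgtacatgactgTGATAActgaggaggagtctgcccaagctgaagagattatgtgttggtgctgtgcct
Cst12: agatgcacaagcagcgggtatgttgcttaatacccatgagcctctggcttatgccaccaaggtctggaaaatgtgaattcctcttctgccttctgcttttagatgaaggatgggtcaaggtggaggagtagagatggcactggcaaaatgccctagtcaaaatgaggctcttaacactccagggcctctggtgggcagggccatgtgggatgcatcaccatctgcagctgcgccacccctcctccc
Defb36: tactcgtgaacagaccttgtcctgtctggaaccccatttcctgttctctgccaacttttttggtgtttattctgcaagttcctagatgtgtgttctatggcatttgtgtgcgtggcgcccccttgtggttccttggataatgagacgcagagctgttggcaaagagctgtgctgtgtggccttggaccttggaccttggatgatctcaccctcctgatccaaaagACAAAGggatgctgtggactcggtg
Fshr: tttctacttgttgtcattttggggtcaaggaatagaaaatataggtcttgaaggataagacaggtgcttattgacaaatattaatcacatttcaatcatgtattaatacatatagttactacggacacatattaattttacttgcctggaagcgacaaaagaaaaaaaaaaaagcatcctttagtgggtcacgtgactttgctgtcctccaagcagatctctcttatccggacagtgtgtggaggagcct
In these windows Cst9 has a SOX motif, read on the reverse strand, and a GATA motif, Defb36 has a SOX motif, and neither was found upstream of Cst12 or Fshr. RefSeq gave 23 windows for 21 of the 31 members, each counted over the 250 bases before a RefSeq start, which need not be the start of the annotated gene (for Rhox5 and Gdnf, for example, a start lay elsewhere). A SOX motif was in 7 of the 23, against 38.8% of 32851 windows of all genes, and a GATA motif in 3 of the 23, against 16.6%. The palindromic androgen receptor motif, also searched, was in 0 of the 23, against 0.0304% of all windows. These motifs are short, SOX and GATA matches do not share letters here, and a match is a description of the letters only.

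Ptgds and the Trf row departed from the other secreted products in opposite ways. Ptgds, the lipocalin-type prostaglandin D synthase, which Sertoli cells secrete and which has also been described in Leydig cells, lies on chromosome 2 at 25466709 to 25470046. It was at 78.3, 77.0 and 73.0 FPKM in knockout libraries, against 4.90, 4.32 and 4.54 FPKM in control libraries (log2 fold change 3.79, SE 0.049, adjusted p = 2.2e-08). Its ratio of 16.6 was the highest of the 31, and by level it ranked 11 of 31 in knockouts and 24 of 31 in controls. The Trf row, with the iron carrier transferrin, was at 9.87, 10.1 and 9.97 FPKM in knockouts, against 10.0, 4.94 and 9.15 FPKM in controls, and gave no call (log2 fold change 0.33, SE 0.23, adjusted p = 0.23). Control replicate 2 was the low library, and without it the log2 fold change was 0.056 (adjusted p = 0.34).

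The cytoskeletal and adhesion members behaved least alike. Vim (vimentin), the intermediate filament of the mature Sertoli cell, was at 114, 108 and 107 FPKM in knockouts, against 31.8, 36.3 and 30.3 FPKM in controls (log2 fold change 1.71, SE 0.069, adjusted p = 1.9e-06). Cdh2 (N-cadherin), an adhesion protein that both Sertoli and germ cells carry, was at 14.0, 13.9 and 14.5 FPKM in knockouts, against 14.4, 13.7 and 14.1 FPKM in controls. The groups overlapped, and the log2 fold change was 0.0061 (SE 0.033, adjusted p = 0.87). That call depended on scaling: Cdh2 was called higher by 0.12 after quantile normalization, by 0.17 after median centring and by 0.090 with mitochondrial rows removed. Krt18, a keratin of the immature Sertoli cell, was at 2.39, 2.87 and 1.91 FPKM in knockouts, against 2.17, 2.87 and 2.76 FPKM in controls, and gave no call (-0.091 on the log2 scale, SE 0.13, adjusted p = 0.54).

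The 3 members of other or unknown role were all called higher in knockouts, against 40.9% of all rows. Aard, an alanine and arginine rich gene that marks the Sertoli lineage, was at 1044, 1050 and 1041 FPKM in knockouts, against 254, 258 and 257 FPKM in controls (log2 fold change 2.02, SE 0.020, adjusted p = 1.1e-08). Mro (maestro), a gene first described in the developing testis, rose 3.77-fold. The Tsx row was at 2.24, 1.70 and 1.70 FPKM in knockouts, against 0.40, 0.43 and 0.37 FPKM in controls. It carries a testis-specific X-linked gene and Tsix, the antisense partner of Xist, so its ratio of 4.70 cannot be given to Tsx, and its call is no support because only the knockouts took it past the filter.

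Most members rose by a similar factor, though not by the same one. Over all 31 the knockout to control ratio had a median of 3.77 and quartiles of 3.34 and 4.36, with extremes of 0.919 and 16.6. Between 3 and 5 lay 22 members, a window chosen after the values were seen, and 6.62% of all tested rows fell in it. Gata4 (3.07) and the Tsx row (4.70) were its outermost members, while Sox8 (2.77) and Wnt4 (5.29) lay nearest outside. Levels largely kept their order: across the 31 members, log10 levels in knockouts and in controls had a Pearson r of 0.952 with a slope of 0.995. Those points come from the same 6 libraries and are genes, not replicates. Clu, Aard, Cst12 and Cst9 made up 73.6% of the members' summed FPKM in knockouts and 71.3% in controls.

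**Figure D2:**
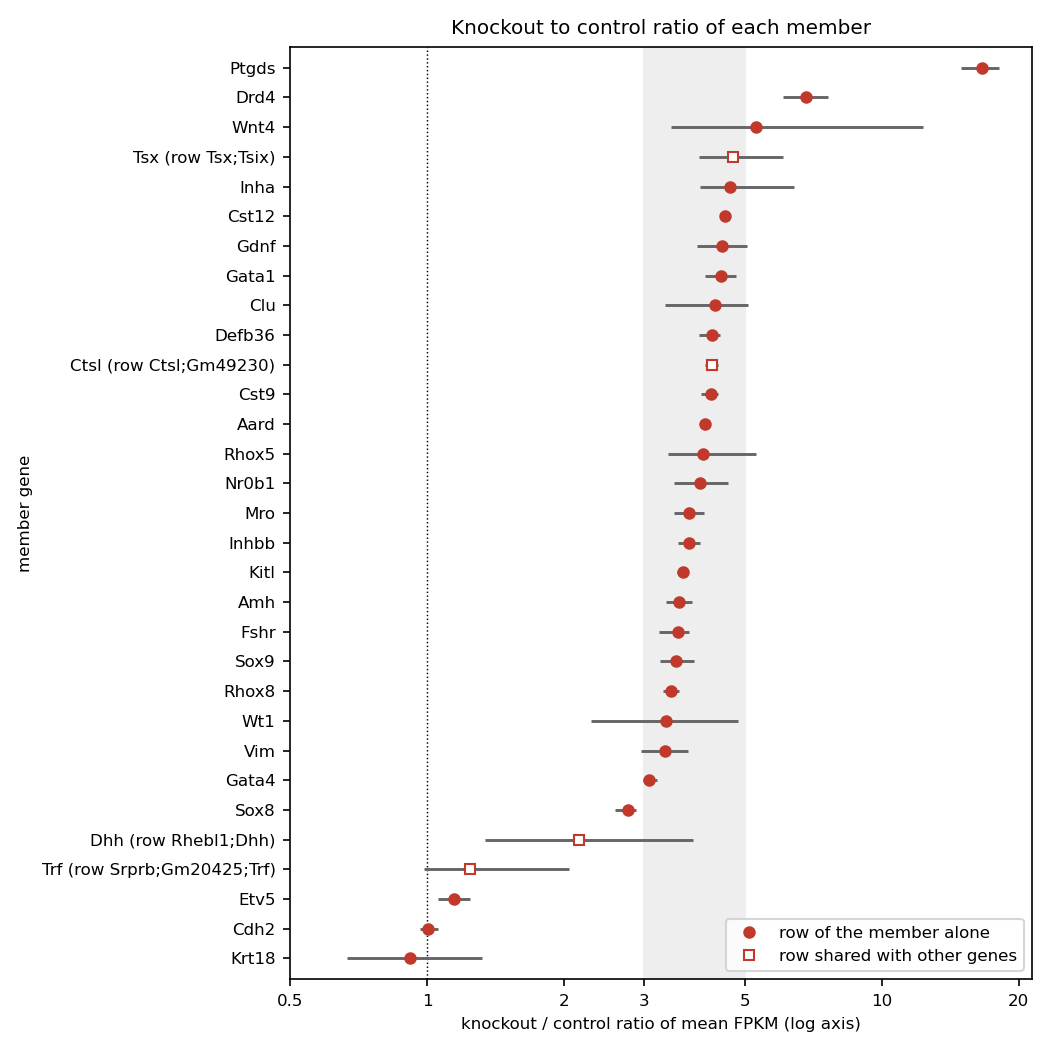
Ratio of mean FPKM, knockout over control spermatocytes, for each of the 31 members (log axis); lines run from the lowest to the highest ratio between single libraries, open squares are rows shared with other genes, and the grey band covers ratios of 3 to 5. The band holds 22 members, with Ptgds at 16.6 at the top and Krt18 at 0.919 at the bottom.

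The spread of the ratios was larger than the error of a single one. Over the 22 members in the window, the log2 ratios had an SD of 0.17, against a median SE of 0.049 for a member's own log2 ratio. Over all 31 members the SD was 0.82 and the median SE 0.055. The window bounds the first SD, so it is a description of the 22 and not a measure of the whole set.

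Whether members moved by the same factor was tested on log2(FPKM + 1) of each row minus that of Sox9 in the same library. The pseudocount of 1 damps the change of Sox9 itself, which was 1.72 on this scale and 1.82 as the log2 ratio of means. Of 29 other members tested, 11 rose more than Sox9, 7 changed by less and 11 gave no call. Without Drd4 and the Tsx row, which passed the filter through knockouts only, 10 of 27 rose more and 6 changed by less. Against Sox9, 96.2% of all 15956 rows were called, 0.884% higher and 95.4% lower, so most rows of the libraries fell behind it. Because Sox9 enters every ratio, its own error is shared by all of them, and errors are those of 3 libraries a group.

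Amh was 4.44, 4.82 and 4.24 times the Sox9 level in knockout libraries, against 4.46, 4.67 and 4.13 times in control libraries. Its change relative to Sox9 was 0.10 on the log2 scale (SE 0.071, adjusted p = 0.20). Kitl (0.081, SE 0.067), Rhox8 (0.048, SE 0.063), Rhox5 (-0.0056, SE 0.12), Vim (-0.0058, SE 0.099) and Fshr (-0.099, SE 0.087) lay near 0 on the same scale and gave no call. The rest without a call were Wt1, Nr0b1, Inhbb, Mro and the Dhh row. A missing call does not show equal change: the Dhh row stood at -0.83 (SE 0.37, adjusted p = 0.059) and, without knockout replicate 2, at -1.32 (adjusted p = 1.4e-06).

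Cst12 was 27.9, 29.9 and 27.5 times Sox9 in knockouts, against 21.4, 23.1 and 21.9 times in controls (log2 difference 0.46, SE 0.064, adjusted p = 0.00020). The groups lay apart without rescaling, as they did for Cst9 (0.35), the Ctsl row (0.34), Defb36 (0.34) and Aard (0.31). Ptgds was 2.26, 2.38 and 2.07 times Sox9 in knockouts, against 0.491, 0.473 and 0.458 times in controls (log2 difference 2.07, SE 0.067, adjusted p = 2.7e-08). These 6 calls held when any 1 library was left out, but after quantile normalization Cst12 lost its call (0.14, adjusted p = 0.091) and Aard turned to -0.021 (adjusted p = 0.78). Set against Clu in place of Sox9, Cst9, the Ctsl row, Defb36 and Aard turned to between -0.080 and -0.032, none of them called. The calls of Inha (0.50), Clu (0.39), Gata1 (0.23), Drd4 (0.21) and Gdnf (0.15) did not: each was lost without at least 1 library. The pseudocount also mattered: Drd4 had a difference of 0.21 at a pseudocount of 1 and 0.84 at 0.1. At 0.1 Inha (0.43, adjusted p = 0.062) and Clu (0.30, adjusted p = 0.11) lost their calls. Cst12 (0.37) and Aard (0.22) kept theirs at 0.1, with smaller differences.

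Cdh2 was 0.404, 0.429 and 0.412 times Sox9 in knockouts, against 1.44, 1.5 and 1.42 times in controls (log2 difference -1.71, SE 0.057, adjusted p = 3.2e-08). Krt18 (-1.81), Etv5 (-1.54) and the Trf row (-1.39) likewise fell relative to Sox9, and Sox8 did so by a smaller amount (-0.40, SE 0.076, adjusted p = 0.0012). Gata4 (-0.16) lost its call without some libraries. The Tsx row was lower at a pseudocount of 1 (-0.68) and 0.17 higher, with no call, at 0.1 (adjusted p = 0.34), so its direction depends on the pseudocount.

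**Figure D3:**
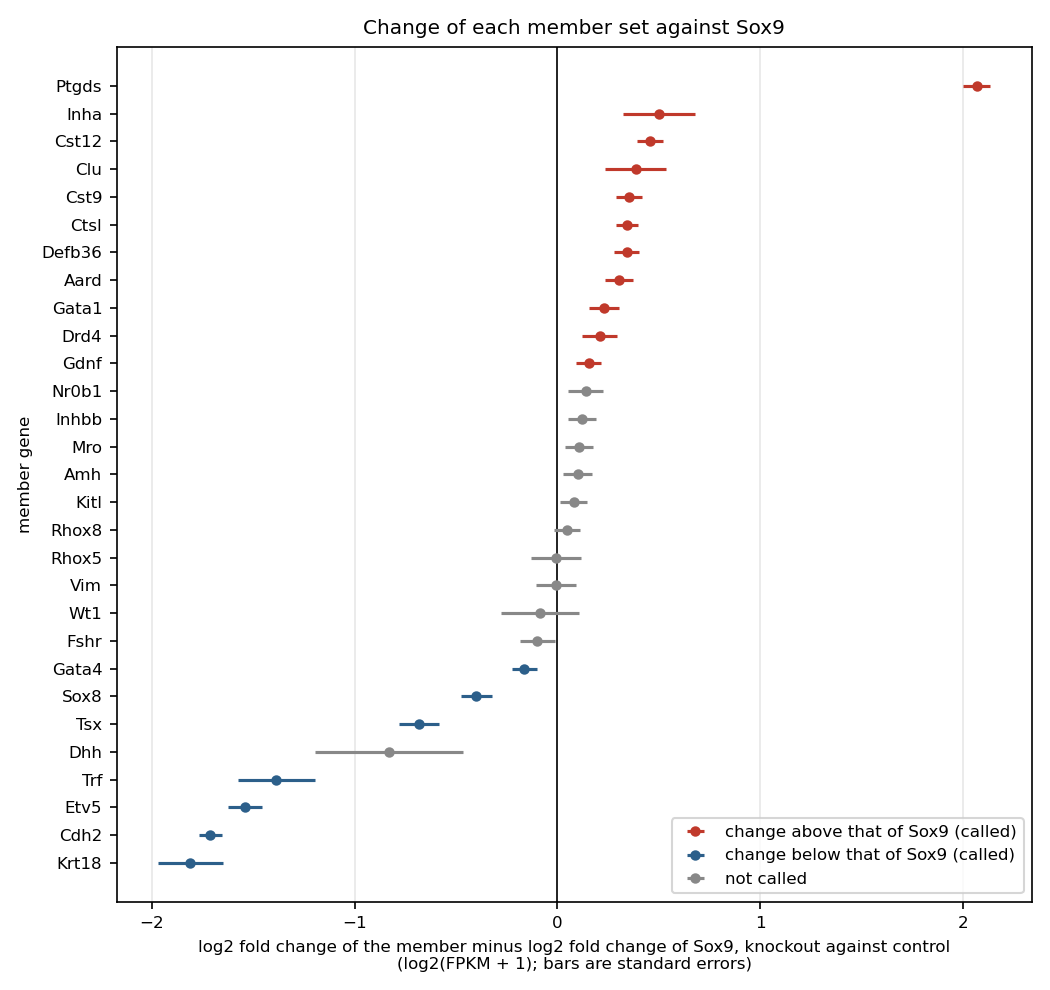
Change of each member relative to Sox9, knockout against control spermatocytes, on the log2(FPKM + 1) scale with SE bars (n = 3 libraries a group). Ptgds lies at 2.07, the called secreted products and Aard between 0.31 and 0.46, and Cdh2, Krt18, Etv5 and the Trf row below -1.

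A further 18 Sertoli genes that are not members moved the same way: 18 were tested, 18 were called higher and 0 lower, against 40.9% and 38.5% of all rows, with ratios of 1.38 to 5.57 and a median of 3.27. Cldn11, a claudin of the blood-testis barrier, averaged 306 ± 3.3 FPKM in knockouts and 64.8 ± 0.60 FPKM in controls (SD, n = 3 each). Aldh1a1, a retinal dehydrogenase, averaged 226 ± 3.6 FPKM in knockouts and 53.4 ± 0.63 FPKM in controls (SD, n = 3 each). Serpina5, a protease inhibitor, had a ratio of 5.57, and the row that holds Shbg with Atp1b2 one of 3.70. The lowest ratio, 1.38, was that of Dmrt1, a factor that spermatogonia also express and that was named after its values were seen.

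Markers of other cells moved by other amounts. Of 7 Leydig genes, 6 were tested and all 6 were called higher, against 40.9% of all rows, and the sum of the list was 192 to 196 FPKM in knockouts, against 19.8 to 20.4 FPKM in controls. Their ratios ran from 2.97 to 71.8 with a median of 11.4: Cyp17a1, a steroidogenic enzyme, averaged 39.6 ± 1.4 FPKM in knockouts and 2.69 ± 0.34 FPKM in controls, and Hsd3b1 25.03 ± 1.8 FPKM in knockouts and 8.28 ± 0.38 FPKM in controls (SD, n = 3 each). Hsd3b6, another steroidogenic enzyme, was at 22.2, 25.4 and 23.5 FPKM in knockouts, against 0.28, 0.29 and 0.42 FPKM in controls. Hsd3b6 was under 1 FPKM in every control library, so it passed the filter only through the knockouts and its call is no support. The Cyp11a1 row, shared with Gm17322, was at 1.32, 0.97 and 1.33 FPKM in controls. It too needed the knockouts to pass, and its call is no support either.

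Myoid and endothelial genes had a median ratio of 1.70, and sums of 53.3 to 55.2 FPKM in knockouts and 37.7 to 39.1 FPKM in controls. Of 6 tested, 5 were called higher and 1 lower, against 40.9% and 38.5% of all rows. The same shares stand beside the counts that follow. Macrophage genes had a median ratio of 1.96 over the 4 tested, all called higher, Csf1r among them only through the filter on knockout libraries. The untested Adgre1 and Cx3cr1, named after their values were seen, had ratios of 1.25 and 0.708, and the list had sums of 26.2 to 29.8 FPKM in knockouts and 11.98 to 17.8 FPKM in controls. Of 7 spermatogonial genes 1 was called higher and 5 lower, with ratios of 0.668 to 1.20, and after median centring 3 were called higher and 0 lower. All 6 pachytene and all 6 spermatid genes were called lower, with ratios no higher than 0.147 and 0.101, though Pgk2, Ovol2, Prm2 and Acrv1 were under 1 FPKM in all knockout libraries and passed the filter only through controls. None of these marker genes was at 0 in all libraries, and the part of the changed cell makeup in the Sertoli values was not tested.

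**Figure D4:**
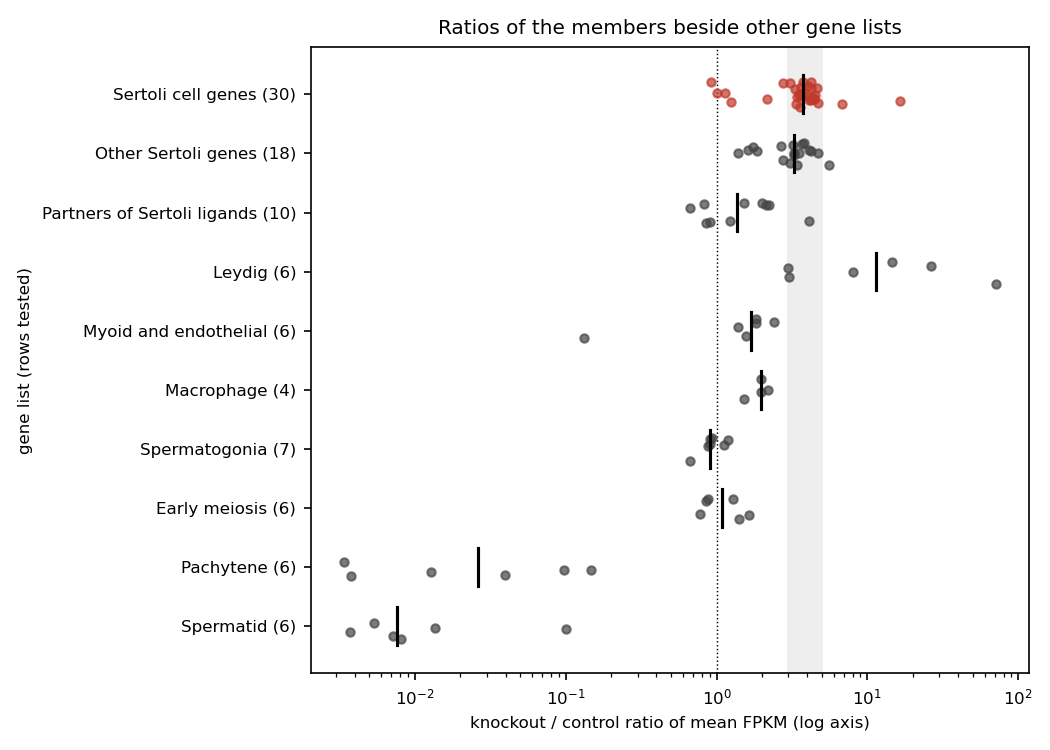
Knockout to control ratio of mean FPKM for each tested gene of the Sertoli set (30) and of the other marker lists in spermatocytes (log axis), with 1 point per gene, a bar at each median and a grey band over ratios of 3 to 5. The band holds 22 Sertoli genes, Leydig genes spread from 2.97 to 71.8, and pachytene and spermatid genes lie at 0.147 and below.

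In GC2 cells most Sertoli genes were barely present. Of the 27 members with a row, 13 reached the filter and 14 did not. Sox9 was at 0.79, 0.54 and 0.56 FPKM after knockdown, against 0.73, 0.50 and 0.43 FPKM in controls. Amh, Inha, Ptgds, Rhox5, Gata1, Drd4, Cst12 and Mro stayed under 1 FPKM in all 6 libraries. Cst9 and Aard, among the 4 highest members in spermatocytes, were listed at 0 in all 3 control libraries and at no more than 0.03 FPKM after knockdown. Germ cell markers were also mostly low: of 6 pachytene genes 4 had a row and 0 reached the filter, and of 6 spermatid genes 2 had a row and 0 reached it. Hspa2, a pachytene chaperone, was listed at 0, 4.64 and 4.68 FPKM after knockdown, against 0 in all 3 controls. Uchl1, which marks spermatogonia and also neurons, passed at 46.5, 56.2 and 58.9 FPKM after knockdown, against 33.9, 32.2 and 28.7 FPKM in controls, and the meiotic factor Prdm9 passed at 0.73 to 1.52 FPKM over the 6 libraries.

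Among the 13 tested members, 6 were called higher after knockdown, 2 lower and 5 gave no call, against 24.5% called among all 10791 rows, 10.7% higher (1153) and 13.9% lower (1496), which became 1405 and 1215 after quantile normalization. Among all 27 members, tested or not, every knockdown library lay above every control library in 7 and below in 4, which held for 19.6% and 25.3% of all rows tested. Krt18 was the most abundant, at 296, 313 and 299 FPKM after knockdown, against 136, 126 and 184 FPKM in controls (log2 fold change 1.04, SE 0.15, adjusted p = 0.0072). Cdh2 was at 33.7, 41.0 and 33.2 FPKM after knockdown, against 16.9, 17.6 and 13.5 FPKM in controls (1.12 on the log2 scale, SE 0.13, adjusted p = 0.0041). Clu was at 21.4, 21.6 and 23.6 FPKM after knockdown, against 10.0, 9.83 and 10.4 FPKM in controls (1.07 on the log2 scale, SE 0.057, adjusted p = 0.00038). These 3 rose at least 2-fold, a size that 3.72% of all rows exceeded, with no overlap between groups, and their calls held when any 1 library was left out.

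Smaller rises were called for Wt1, Kitl and Vim. Wt1 was at 10.3, 9.33 and 8.70 FPKM after knockdown, against 7.88, 6.27 and 6.57 FPKM in controls (log2 fold change 0.41, SE 0.10, adjusted p = 0.043). Kitl rose by 0.35 on the log2 scale (SE 0.072, adjusted p = 0.023) and Vim by 0.15 (SE 0.039, adjusted p = 0.043). All 3 calls were lost when knockdown replicate 1, 2 or 3, or control replicate 2 or 3, was left out, which brought the number of members called higher to 3.

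Gdnf and the Trf row fell. Gdnf was at 4.33, 4.30 and 4.23 FPKM after knockdown, against 6.23, 6.84 and 6.50 FPKM in controls (log2 fold change -0.51, SE 0.053, adjusted p = 0.0028). The Trf row was at 11.7, 12.9 and 12.4 FPKM after knockdown, against 16.5, 17.0 and 16.0 FPKM in controls (-0.39 on the log2 scale, SE 0.054, adjusted p = 0.0065). No call was made for Gata4, Etv5, Ctsl, Wnt4 or Fshr, whose row here holds an assembled transcript only. Wnt4 was at 1.68, 1.88 and 1.76 FPKM after knockdown, against 1.4, 5.34 and 5.18 FPKM in controls. Control replicate 1 was the low library of its group, and without it a fall was called (log2 fold change -1.17, adjusted p = 0.0024).

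**Figure D5:**
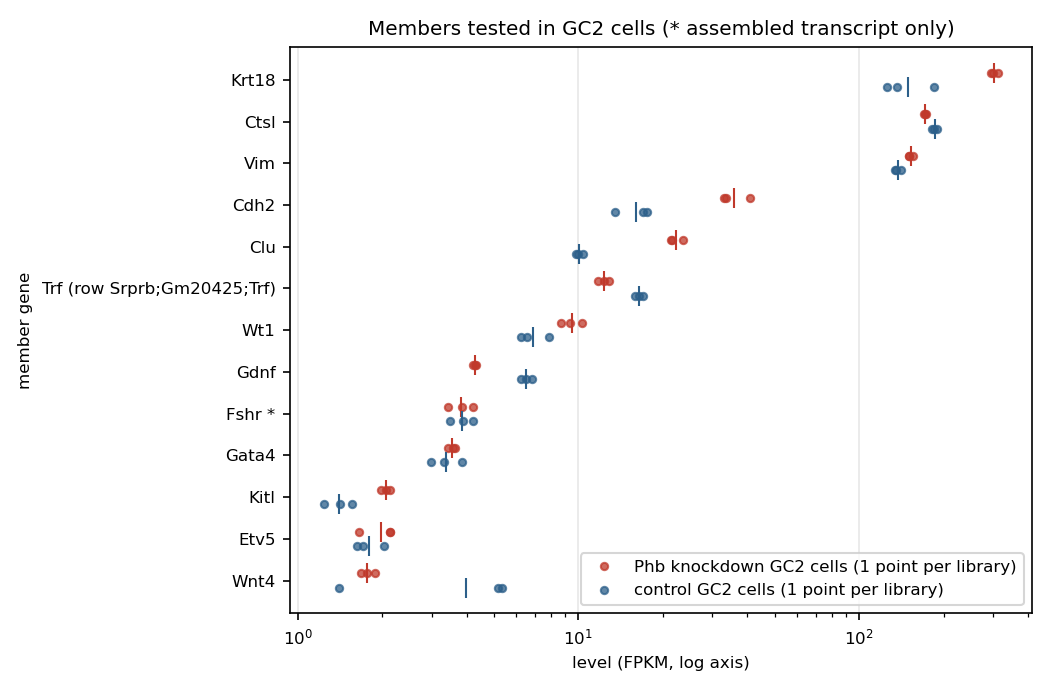
Level of the 13 Sertoli genes tested in GC2 cells (FPKM, log axis), with 1 point per library and a tick at each group mean; knockdown points lie above control points within a gene's line. Krt18, Cdh2 and Clu separate most clearly towards higher levels after knockdown, and Gdnf and the Trf row towards lower ones.

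Whether knockout and knockdown moved these genes differently could be tested for 11 members that had the same row name and passed the filter in both tables. The knockout effect in spermatocytes exceeded the knockdown effect in GC2 cells for 8 of them and was below it for 2. The eighth, the Trf row (0.72, adjusted p = 0.037), lost its call in 12 of 18 other settings (adjusted p of 0.052 to 0.094). Of 8754 rows, 60.7% were called, 38.1% higher and 22.7% lower. Gdnf differed most: it rose by 1.87 on the log2 scale in knockout spermatocytes and fell by 0.51 after knockdown in GC2 cells, a difference of 2.38 (adjusted p = 9.0e-09). Krt18 and Cdh2 differed the other way, by -1.13 (adjusted p = 0.0010) and -1.11 (adjusted p = 8.4e-05). Clu was called higher in both, and its difference was 1.04 (adjusted p = 0.00012). Etv5 gave no call (0.086, adjusted p = 0.54).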

How the data were processed

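RNA was read by directional sequencing in 12 mouse libraries, 3 in each of 4 groups. What the authors deposited is FPKM for each gene row, and count tests were not used. HISAT2 2.1.0, DESeq, GRCm38 and mm10 appear in the submitters' processing notes, with no roles. The sources used here do not give the quantifier or the annotation. FPKM does not correct for composition, so a group of genes that takes more of the RNA lowers all others.

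Rows without a gene name were left out (164 in spermatocytes, 1200 in GC2). Rows reaching 1 FPKM in at least 3 of 6 libraries were tested with limma 3.58.1 (R 4.3.3), with a variance trend, on log2(FPKM + 1), each table on its own, two-sided, with calls where the Benjamini-Hochberg adjusted p was under 0.05. Changes relative to Sox9 were tested on the log2 difference of each row and Sox9 within a library. The difference between both effects was an interaction in 1 fit of 12 libraries. Fits were tested on simulated data. There 7.61% of spermatocyte calls, 4.40% relative to Sox9, 4.41% in GC2 and 6.98% in the interaction fell on unchanged rows. Of simulated 1.5-fold changes, 73.1% were recovered in spermatocytes and 46.3% in GC2, so small changes can go uncalled. Only a few rows were changed there (67 of 15569 by 1.5-fold in spermatocytes), while 79.4% of the real spermatocyte rows were called. The simulated rates therefore need not hold for the real calls. Relative depth came from steps in low FPKM values of single-transcript rows: 38.5% to 43.4% of values fell within 0.1 fragment of a whole number, against 20% with no steps.

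Members and lists were chosen with earlier results of these data known. All 31 members are named, and of each other list at most the 4 genes with the highest mean; others named are exceptions chosen after their values were seen. Alternatives were a pseudocount of 0.1, no filter, quantile normalization, median centring, no mitochondrial rows, replicate numbers as a block, each library left out, Clu or Wt1 in place of Sox9, and, added after seeing the data, no moderation of the variance. Summaries used pandas 2.3.3 and numpy 2.4.6 in Python 3.11.15, and figures matplotlib 3.10.9.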

Additional observations from a re-analysis of the deposited data

Results flagged for a closer look

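For 10 of the 11 Sertoli genes that could be tested in GC2 cells and spermatocytes together, the knockout effect in spermatocytes and the knockdown effect in GC2 cells differed in a test of the difference itself (limma interaction, adjusted p under 0.05). In the same test 60.7% of all 8754 rows were called, 38.1% higher and 22.7% lower, so a difference was common well beyond these genes. The difference, on the log2 scale as the knockout effect minus the knockdown effect, was 2.38 for Gdnf (adjusted p = 9.0e-09), 1.56 for Vim (1.9e-07), 1.5 for Gata4 (3.5e-07) and 1.45 for Kitl (9.6e-08). It was 1.63 for Fshr (5.4e-07), whose GC2 row holds an assembled transcript only. It was 1.23 for Wt1 (0.0014) and 1.04 for Clu (0.00012). The Trf row, shared with Srprb and Gm20425, differed by 0.72 (0.037), a call lost in 12 of 18 other settings (adjusted p of 0.052 to 0.094), including each knockout, knockdown or GC2 control library left out, so that 9 genes stood there. Krt18 (-1.13, adjusted p = 0.0010) and Cdh2 (-1.11, adjusted p = 8.4e-05) differed in the other direction, with a larger effect in GC2 cells. With 3 libraries a group, single libraries were not screened for outliers.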

How the results depend on the processing

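In knockout spermatocytes 26 to 29 members were called higher, and 0 lower, under all settings run, while 6276 to 8218 of all rows were called higher. The member counts include Drd4 and the Tsx row, which passed the filter only through the knockouts. Wnt4, below the filter in the main setting, added to them without a filter and without mitochondrial rows. Of the 28 tested members at 1 FPKM in all 3 control libraries, 24 were called higher in the main setting. Over all rows, scaling moved the median change (log2) to 0.28 (quantile), 0.21 (median centring) and 0.12 (no mitochondrial rows), with members at 1.87, 1.97 and 1.90. In GC2 cells 3 to 5 members, and 744 to 962 rows, were called higher with 1 library left out, against 6 and 1153. Relative to Sox9, 6 to 10 members were called higher with 1 library left out and 7 after quantile normalization, against 11. Relative to Clu it was 1 member higher, 13 lower and 30 rows higher, and relative to Wt1 2 members and 48 rows higher, against 141 rows for Sox9. Without a filter 36174 rows were called relative to Sox9, 36037 of them lower (15357 and 15216 with it). The interaction then called 9815 rows, 5218 higher and 4597 lower, and 21 members higher, against 5316, 3333, 1983 and 8; more rows were tested.

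Turns of direction are listed for members called in the main setting or in the other one. Directions relative to Sox9 turned for Clu (-0.021) and Aard (-0.021) after quantile normalization, and for the Tsx row (0.17) at a pseudocount of 0.1. Relative to Clu they turned for Gata1 (-0.16), Gdnf (-0.23), Drd4 (-0.18), the Ctsl row (-0.042), Cst9 (-0.032), Defb36 (-0.043) and Aard (-0.080). Members with no call in either setting turned as well, among them Rhox5 (0.18) at a pseudocount of 0.1 and Kitl (-0.30) relative to Clu. Each value relative to Clu is the value relative to Sox9 less that of Clu itself (0.39). Members above Sox9 by less than Clu therefore had to turn. The cause of the other turns was not tested. Without moderation of the variance, 8 members were called above Sox9, without Inha, Drd4 and Clu.

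Replicate numbers showed no pairing of the spermatocyte samples. Deviations of same-numbered libraries correlated at 0.0074, -0.054 and 0.0074 there, and those of differently numbered ones at -0.042 to 0.036. In GC2 cells same-numbered libraries had 0.12, 0.078 and 0.061, all above the differently numbered ones (-0.074 to -0.00087). Replicate numbers may thus pair the GC2 samples weakly. With the replicate block, 26 members were called higher in spermatocytes, 4 in GC2 cells (Kitl and Vim lost), 13 relative to Sox9 and 7 in the interaction (the Trf row lost). Low FPKM values such as those of Wnt4 rest on few fragments, and depth in GC2 is unknown.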
